A study of Mus musculus with 12 samples.

Results

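The lysosome is the acid compartment in which cells break down glycolipids, glycogen, glycoproteins, glycosaminoglycans, cholesterol esters and proteins. Each step of a breakdown chain has its own soluble hydrolase, most of which carry a mannose-6-phosphate tag for delivery, while heavily glycosylated membrane proteins line the organelle and move its products out. Macrophages carry a large lysosomal compartment for digesting what they engulf, and the transcription factor TFEB is known for binding a CACGTG-type element (the CLEAR element) near the starts of many lysosomal genes. The gene set described here consists of 34 such genes: the saposin precursor Psap, glycosidases, sulfatases, lipid hydrolases, the cholesterol carriers Npc1 and Npc2, a few proteases, lysosomal membrane proteins, progranulin (Grn) and Tfeb itself. They were picked by symbol, with earlier results of these data already known, and the cathepsins were left out. All 34 of 34 were listed in each of the 4 deposited tables of normalized counts, among 16516 genes listed in any table, and all 34 passed the filter on low values. The least abundant member still had 1058 reads in its poorest library.

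The libraries came from mouse bone marrow-derived macrophages, either wild type (WTfl/fl, called WT here) or MGMT KO (called KO). MGMT is an enzyme that repairs alkylated guanine in DNA. Cells of each genotype received the vehicle DMSO or DMXAA, a small molecule that activates mouse STING, at 10 mg/ml as the series text gives it, for 24 h. The 4 groups, WT under DMSO, WT under DMXAA, KO under DMSO and KO under DMXAA, had 3 libraries each, and the same batch label stands on all 12. The labels do not name the driver of the deletion, the age or sex of the mice, or whether libraries of a group came from separate mice, so p-values measure the spread between these libraries, which may be technical.

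Libraries held 79.5 to 98.1 M reads, with M for mega. Mgmt itself was lower in KO but still present, with 121, 141 and 162 reads under DMSO in KO against 263, 245 and 243 in WT, and 51, 61 and 33 against 107, 85 and 99 under DMXAA. All 8 macrophage markers of a list were present. Their summed level was 18941 to 19158 reads per M in WT under DMSO and 9578 to 9974 under DMXAA, and in KO 14902 to 15630 and 7702 to 7799. The 5 monocyte markers summed to 17.9 to 24 reads per M in WT under DMSO and 409 to 431 under DMXAA, and in KO to 24 to 26.1 and 257 to 334. These sums hide calls in both directions by the limma comparison described below. Of the 5 monocyte markers 4 were higher and 1 lower under DMXAA in each genotype. The lower one was F13a1, at a log2 change of -7.10 in WT and -9.47 in KO. Of the 8 macrophage markers 2 were higher and 5 lower in WT, and 2 and 6 in KO. Over all genes 31.7% were higher and 31.1% lower in WT, and 33.7% and 32.9% in KO. The 8 neutrophil markers, of which 7 were listed (all but Elane), summed to 5.47 to 7.75 reads per M in WT under DMSO and to 0.744 to 1.28 in KO under DMSO. The 7 stromal markers summed to 0.992 to 5.88 in KO under DMSO and to 0.402 to 0.884 in WT under DMSO. The part of these cell type markers in the results below was not tested. Since these are bulk samples, fewer cells of a type and less RNA per cell cannot be told apart.

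Under DMSO in WT macrophages the members spanned a wide range of levels, compared here per length as reads per kb of annotated exon per M reads. Psap was far above the rest at 18406 ± 968 (SD, n = 3). The macrophage sialomucin Cd68 followed at 1442 ± 92.6 and the abundant membrane glycoprotein Lamp1 at 999 ± 11.2. The next pair did not separate: Hexa, the alpha subunit of beta-hexosaminidase, was at 599 ± 8.43 and Grn at 585 ± 8.75, with overlapping libraries. Cd63 (489 ± 4.95), the asparaginyl endopeptidase Lgmn (378 ± 8.95), the acid lipase Lipa (341 ± 17.5) and beta-glucuronidase Gusb (267 ± 5.89) came after them. At the lower end Tfeb stood at 10.6 ± 0.513, the calcium channel Mcoln1 at 6.5 ± 0.184 and arylsulfatase B, Arsb, at 3.57 ± 0.103, the lowest of the 34. In this order 14 members lay above 100 on this scale and 7 below 10, and in 11 of the 33 neighbouring pairs the ranges of the 3 libraries overlapped.

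**Figure D1:**
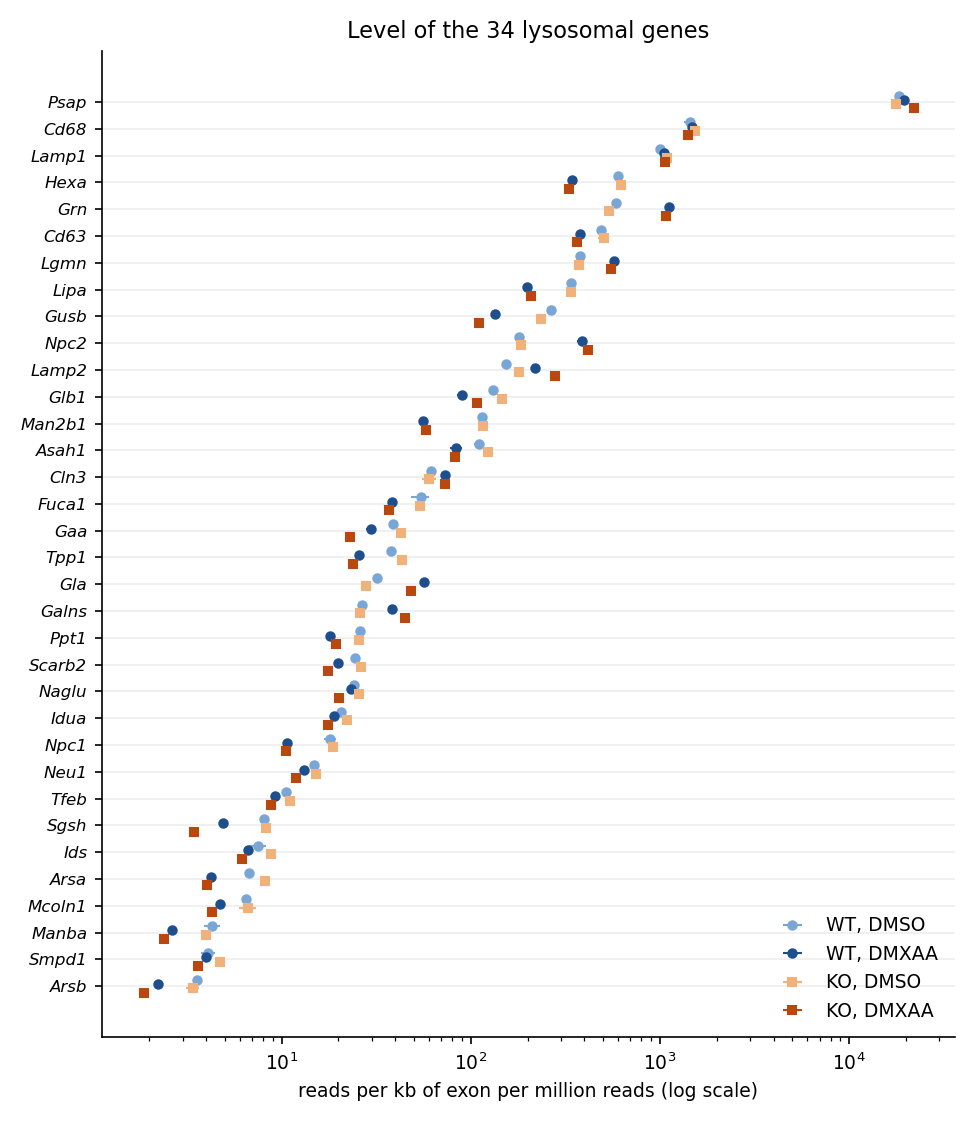
Level of each of the 34 members in reads per kb of exon per M reads (log scale), with points for the mean of 3 libraries in each of the 4 groups and bars for the SD. Psap lies more than a step of the log scale above the next gene, and Grn, Npc2 and Gla sit higher under DMXAA while Gusb, Hexa and Man2b1 sit lower.

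Because of Psap the set took a large share of the sequencing. Its 34 genes held 7.06% ± 0.275 (SD, n = 3) of all reads in WT under DMSO (6.75%, 7.17% and 7.27% in the 3 libraries), 7.46% ± 0.132 in WT under DMXAA (7.32%, 7.46% and 7.59%), 6.95% ± 0.165 in KO under DMSO (6.97%, 6.78% and 7.11%) and 8.18% ± 0.169 in KO under DMXAA (8.23%, 7.99% and 8.31%). The 3 libraries of KO under DMXAA lay above the other 9. Psap alone held 5.05%, 5.36%, 4.88% and 6.05% of reads as group means in the same order, and the other 33 genes together 2.01%, 2.09%, 2.07% and 2.13%. No test was made on these sums.

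**Figure D2:**
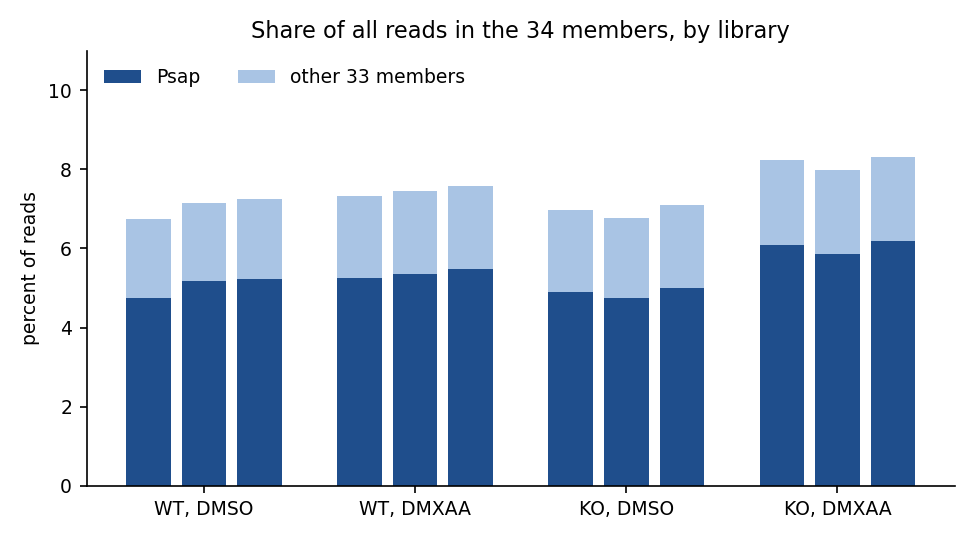
Percent of all reads in each of the 12 libraries that fell in Psap (dark) and in the other 33 members (light), by group. The light part stays near 2.01% to 2.13% as group means, while the Psap part is highest in KO under DMXAA at 6.05%.

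The first comparison asked how the lysosomal genes of WT macrophages responded to STING activation. They did not move as a block. DMXAA raised progranulin, the cholesterol carrier Npc2, alpha-galactosidase A (Gla), Lgmn, Lamp2 and the sulfatase Galns by 1.77-fold to 2.65-fold, and lowered Man2b1 and Gusb to 0.61 and 0.62 of their DMSO level and 11 other members by less. By limma on log2(normalized count + 1), with an adjusted p below 0.05 over all genes tested, 14 of 34 members (41.2%) were higher, where 31.7% of 12752 genes were higher, and 13 (38.2%) were lower, where 31.1% of genes were lower. The median log2 change was -0.01 over the members and -0.00 over all genes.

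Those counts depend on how libraries are put on one scale. The deposited values use size factors under which the median gene does not change, and giving all libraries the same total shifts the median of all genes by -0.32 in WT and by -0.39 in KO. Members were therefore also counted where 3 scalings (the deposited one, the same total and the same upper quartile) gave the same call. In WT 7 members (20.6%) were higher under all 3, where 16% of genes were: Grn, Npc2, Gla, Lgmn, Lamp2, Galns and Cln3. The 13 lower members (38.2%, against 31.1% of genes) were lower under all 3: Hexa, Glb1, Arsa, Man2b1, Manba, Gusb, Sgsh, Arsb, Lipa, Npc1, Tpp1, Ppt1 and Mcoln1. Both other scalings move changes downward, the same upper quartile by -0.11 in the median gene. The count of lower genes stayed at 3960 under all 3, so staying lower was no check on these calls.

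KO macrophages gave the second comparison, the same treatment in the knockout cells. In it 10 of 34 members were higher (29.4%, where 33.7% of 12704 genes were) and 15 lower (44.1%, where 32.9% of genes were), with a median of -0.07 against -0.00 over all genes. Under all 3 scalings 8 were higher (23.5%, against 15.7% of genes), namely the 7 WT genes and Psap. The 15 lower members were lower under all 3 (44.1%, against 32.9% of genes): Hexa, Arsa, Asah1, Gaa, Man2b1, Manba, Fuca1, Gusb, Sgsh, Arsb, Lipa, Npc1, Tpp1, Scarb2 and Mcoln1. In KO too the count of lower genes stayed at 4180 under all 3, so this was no check on the lower calls. The plot of responses by role shows both genotypes side by side, and calls given for single genes are by the deposited scaling unless another is named. Counts by role below stand against the shares over all genes: 31.7% higher and 31.1% lower in WT, 33.7% and 32.9% in KO.

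**Figure D3:**
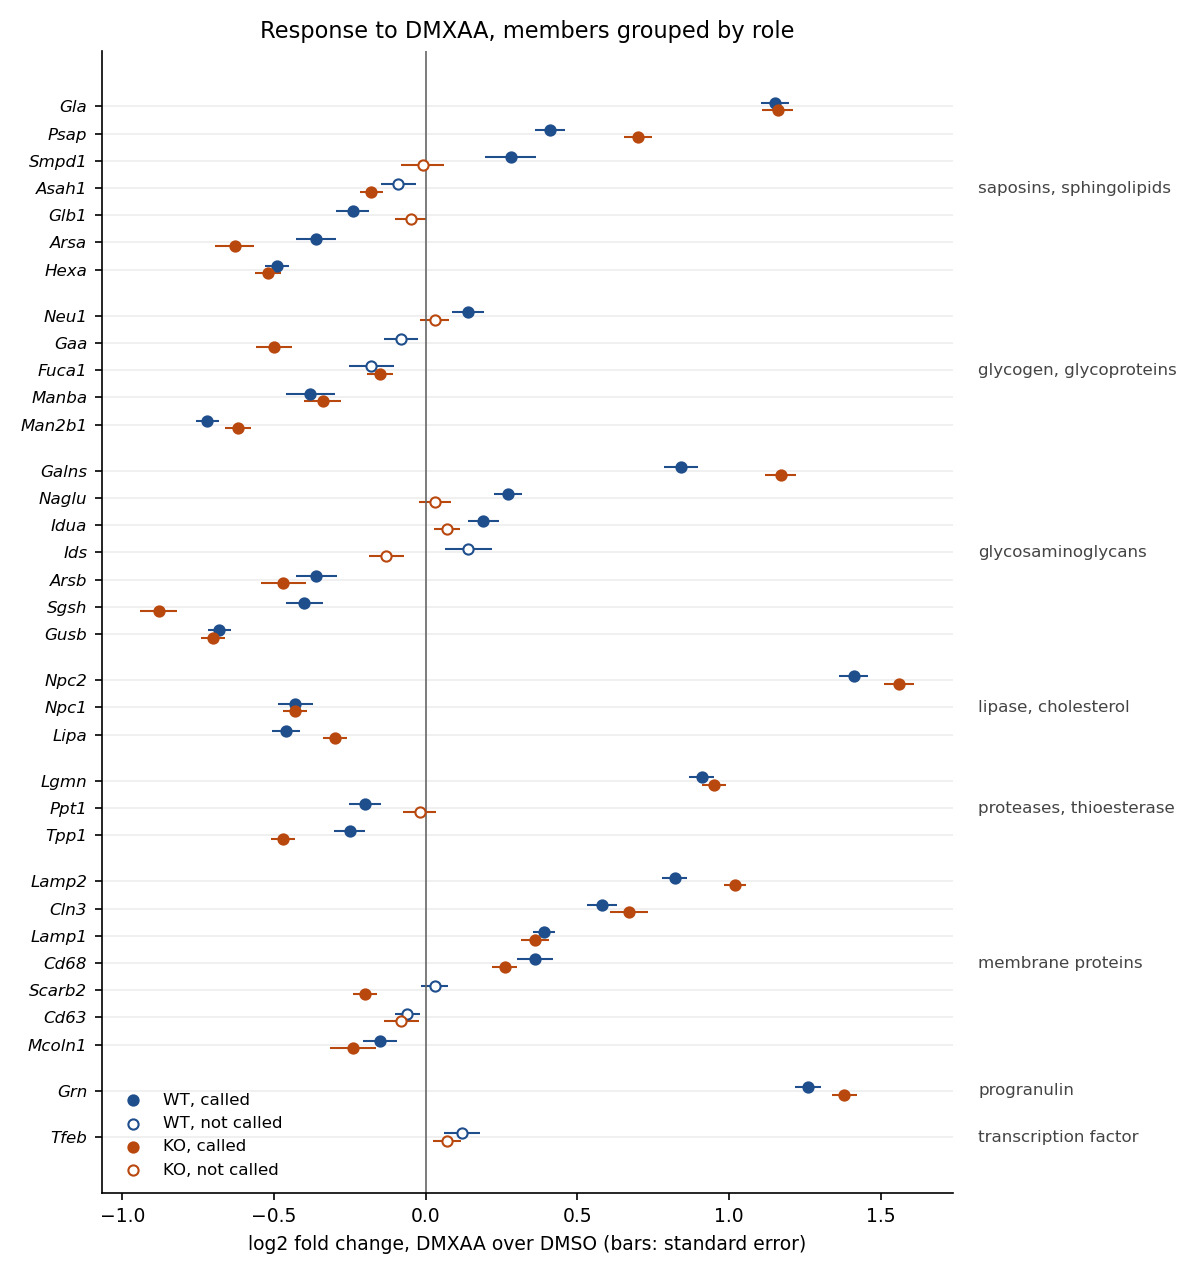
Log2 fold change of each member, DMXAA over DMSO, in WT (blue) and KO (orange), grouped by role, with bars for the standard error and filled points for an adjusted p below 0.05 by limma. Within each enzyme group some genes lie right of 0 and others left, from Npc2 at 1.41 in WT and 1.56 in KO to Man2b1 at -0.72 in WT and Sgsh at -0.88 in KO.

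Progranulin is a secreted and lysosomal glycoprotein that supports lysosomal enzymes and is cut into granulins. In WT its normalized counts were 161081, 156124 and 162330 under DMSO and 364886, 396008 and 387273 under DMXAA, and in KO 147174, 143246 and 157126 against 383155, 395395 and 385312. No DMXAA library came near a DMSO library. Separate groups were common: 29 of the 34 members in WT and 26 in KO had no overlap between treatments. The share over all genes was not counted. WT cells gave a log2 change of 1.26 (SE 0.044) with an adjusted p of 4.27e-09, and KO cells 1.38 (SE 0.042) with an adjusted p of 7.98e-10, the smallest p of any member in both genotypes.

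Cholesterol freed in the lysosome is handed from the soluble carrier NPC2 to the membrane protein NPC1, after the acid lipase LIPA has cut cholesterol esters. Npc2 counts in WT were 78714, 75944 and 77965 under DMSO and 195863, 201061 and 220070 under DMXAA. In KO they were 78646, 75374 and 86233 against 231551, 235688 and 238930. The groups did not overlap, and the log2 changes were 1.41 (SE 0.049, adjusted p = 4.70e-09) and 1.56 (SE 0.050, adjusted p = 1.07e-09). The genes on either side of that hand-over moved the other way: Npc1 fell by 0.43 on the log2 scale in both WT (adjusted p = 9.42e-05) and KO (adjusted p = 3.89e-06), and Lipa fell by 0.46 in WT and by 0.30 in KO. Of these 3 genes 1 was higher and 2 were lower in each genotype.

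Among the 7 genes for sphingolipid breakdown, 3 were higher and 3 lower in WT, and 2 higher and 3 lower in KO. Gla, which removes the terminal galactose from globosides, had normalized counts of 8432, 7871 and 8172 under DMSO and 18567, 17969 and 17937 under DMXAA in WT, and of 6968, 7259 and 7644 against 16564, 16905 and 15565 in KO. All DMXAA libraries were above all DMSO libraries, with log2 changes of 1.15 (SE 0.046, adjusted p = 1.14e-08) and 1.16 (SE 0.051, adjusted p = 1.32e-08). Hexa, needed for ganglioside breakdown, changed by -0.49 in WT and -0.52 in KO on the log2 scale, called lower in both. Arsa, which desulfates sulfatide, changed by -0.36 and -0.63. The beta-galactosidase Glb1 was lower in WT at -0.24 and not called in KO at -0.05, acid ceramidase Asah1 was at -0.09 (not called) and -0.18 (lower), and acid sphingomyelinase Smpd1 at 0.28 in WT, a call lost under both other scalings, and -0.01 in KO.

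Psap encodes prosaposin, the precursor of the saposins, small proteins that present lipids to these enzymes. Its normalized counts were 3756045, 4034254 and 4116704 in WT under DMSO and 5103612, 5278249 and 5375834 under DMXAA. In KO they were 3903380, 3718367 and 4024639 against 6282908, 6130083 and 6467672. Each DMXAA library was above each DMSO library of its genotype. WT cells had a log2 change of 0.41 (SE 0.050) with an adjusted p of 5.55e-05, and KO cells one of 0.70 (SE 0.046) with an adjusted p of 3.16e-07. With all libraries at the same total the WT change was 0.09 (adjusted p = 1.22e-01), no longer called, and the KO change 0.31, still called.

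**Figure D4:**
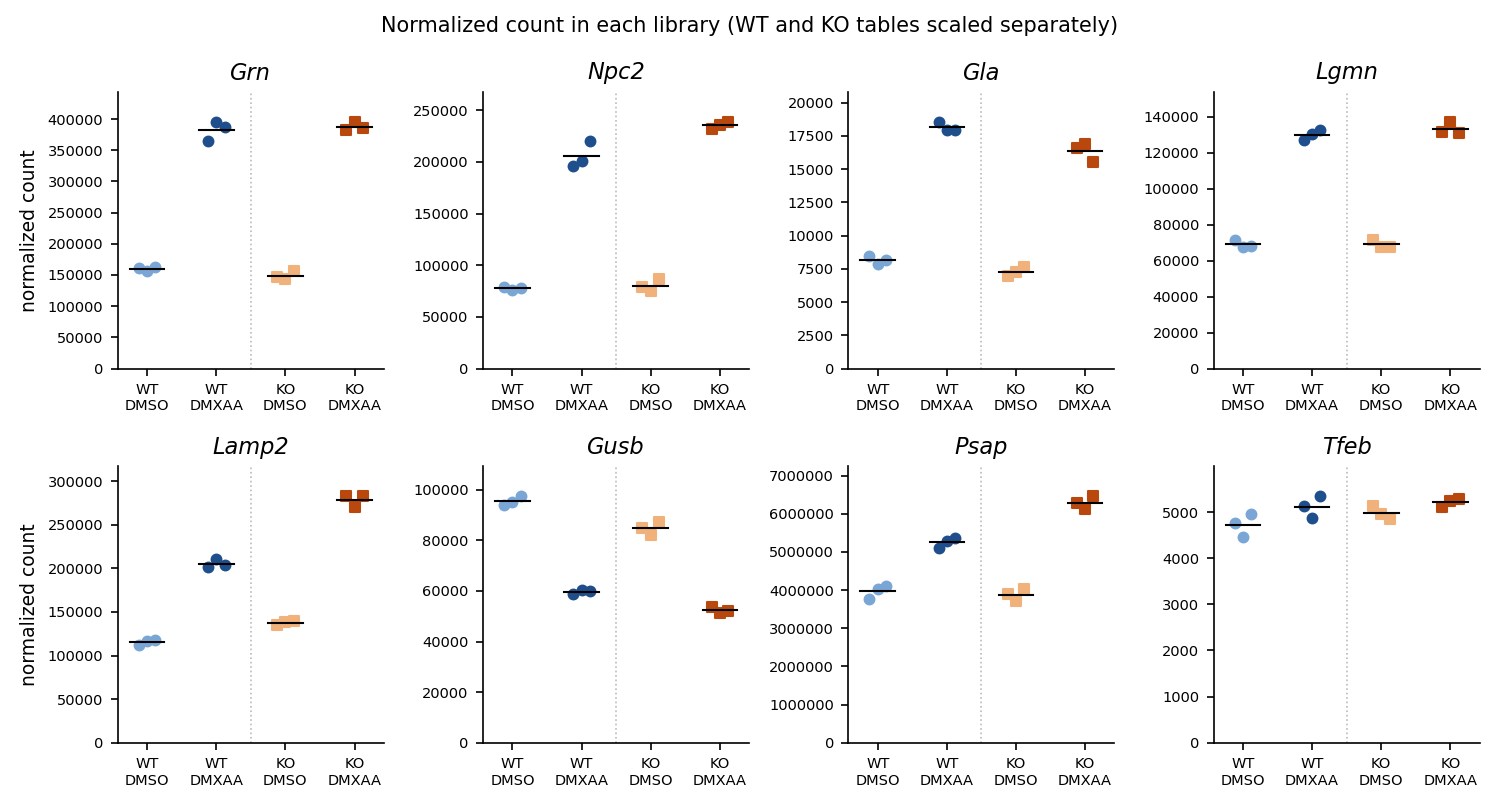
Normalized count in each library for Grn, Npc2, Gla, Lgmn, Lamp2, Gusb, Psap and Tfeb, with a line at the mean of 3 libraries; WT and KO values come from separately scaled tables, so heights compare within a genotype only. The treated libraries stand clear of the untreated ones for every gene shown except Tfeb, whose libraries overlap in WT and in KO.

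Of the 5 glycosidases for glycogen and glycoproteins, 1 was higher and 2 were lower in WT, and 4 were lower in KO. The alpha-mannosidase Man2b1 was lower in both genotypes, at -0.72 in WT (SE 0.038, adjusted p = 1.18e-07) and -0.62 in KO (SE 0.043, adjusted p = 5.33e-07). The beta-mannosidase Manba was lower as well, at -0.38 and -0.34. Gaa, the acid alpha-glucosidase that digests glycogen, changed by -0.08 in WT (adjusted p = 2.34e-01) and by -0.50 in KO (adjusted p = 3.38e-05). The fucosidase Fuca1 was at -0.18 in WT (not called) and -0.15 in KO (lower), and the sialidase Neu1 was called higher in WT at 0.14, not called at the same upper quartile (0.03) and called lower at the same total (-0.18), and was at 0.03 in KO (not called).

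Glycosaminoglycans such as heparan sulfate, dermatan sulfate and keratan sulfate are taken apart by sulfatases and glycosidases acting in turn, and the 7 genes of this group split widely. Galns, a sulfatase of keratan sulfate, had counts of 5958, 5257 and 5557 under DMSO and 9794, 10221 and 9879 under DMXAA in WT, and of 5748, 5254 and 5518 against 11832, 12864 and 12405 in KO. It was the one gene of the group called higher in both genotypes, at 0.84 (SE 0.056) and 1.17 (SE 0.052). Gusb had counts of 93912, 94958 and 97559 against 58746, 60248 and 59910 in WT, and of 85034, 82143 and 87383 against 53826, 51112 and 52072 in KO, so every treated library lay below every untreated one. Its log2 changes were -0.68 (adjusted p = 1.67e-07) and -0.70 (adjusted p = 1.04e-07).

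The heparan N-sulfatase Sgsh went from 2731, 2745 and 2880 under DMSO to 2037, 2218 and 2081 under DMXAA in WT, and from 2994, 2883 and 2836 to 1511, 1668 and 1563 in KO. These groups did not overlap, and the log2 changes were -0.40 (SE 0.060, adjusted p = 2.21e-04) and -0.88 (SE 0.060, adjusted p = 4.54e-07), the lowest of any member in KO. Arsb was at -0.36 and -0.47. Naglu (0.27), which acts on heparan sulfate, and the iduronidase Idua (0.19) were called higher in WT under the deposited scaling alone or with one other, had values below 0 at the same total, and were at 0.03 and 0.07 in KO, not called. At the same total in WT Idua was called lower (-0.13) and Naglu was not called (-0.05). The iduronate sulfatase Ids was not called in either genotype, at 0.14 and -0.13. Some members share exon bases with genes on the opposite strand. Those of Arsb share 32.3% with Gm26527, for which no level is given here, and 7.67% with Gm47210. The exons of Sgsh share 21.6% of their bases with the opposite-strand gene Card14, which averaged 7.36 reads per M, and those of Arsa share 18.8% with C230037L18Rik. Exons of Ppt1 share 3.51% of their bases with Cap1, which averaged 1492 reads per M. The part of these neighbours in the values was not tested. The library kit keeps strand, but whether the counting used it is not given in the sources used here, and 11 members in all overlap exons of another gene.

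Of the proteases and the thioesterase, Lgmn was higher. It had counts of 71458, 67577 and 68220 against 127203, 130537 and 132459 in WT, and of 71768, 67814 and 67587 against 131805, 137383 and 130888 in KO. The treated libraries were clear of the untreated ones in both, at 0.91 (SE 0.041, adjusted p = 2.84e-08) and 0.95 (SE 0.040, adjusted p = 9.59e-09). The tripeptidyl peptidase Tpp1 was lower, at -0.25 in WT and -0.47 in KO. The palmitoyl thioesterase Ppt1 was at -0.20 in WT (lower) and -0.02 in KO (not called).

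Among the 7 membrane proteins, 4 were called higher in each genotype, and 2 of them, Lamp2 and Cln3, under every scaling. Lamp2, which with Lamp1 makes up much of the lysosomal membrane protein and serves chaperone-mediated autophagy, had counts of 112557, 117014 and 117846 against 201244, 210264 and 203321 in WT, and of 134581, 138543 and 139452 against 283059, 270238 and 282750 in KO. All treated libraries exceeded all untreated ones, and the changes were 0.82 (SE 0.040, adjusted p = 5.53e-08) and 1.02 (SE 0.037, adjusted p = 3.05e-09). Cln3, whose loss causes a childhood neuronal storage disease, changed by 0.58 and 0.67. Lamp1 (0.39 in WT, 0.36 in KO) and Cd68 (0.36 and 0.26) were called under the deposited scaling. At the same total they were not called in WT and turned to -0.03 and -0.13 in KO. Scarb2, the receptor that carries beta-glucocerebrosidase, was at 0.03 in WT and -0.20 in KO, Mcoln1 was lower at -0.15 and -0.24, and the tetraspanin Cd63 was called in neither (-0.06 and -0.08).

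Tfeb is the transcription factor of the set, and it was not called in either genotype under the deposited scaling. Its counts were 4756, 4455 and 4953 under DMSO and 5120, 4877 and 5350 under DMXAA in WT, and 5125, 4958 and 4853 against 5117, 5236 and 5279 in KO. The libraries overlapped in both genotypes, with changes of 0.12 (SE 0.059, adjusted p = 1.15e-01) and 0.07 (SE 0.046, adjusted p = 2.34e-01). At the same total the values were -0.20 and -0.32, called lower, so the direction depends on the scaling. TFEB activity is set mainly by phosphorylation and entry into the nucleus, which RNA counts do not measure.

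The promoters show what letters stand near the starts of genes that rose and of genes that fell. RefSeq windows on GRCm38.p6, from 250 bases before to 50 bases after a start, matched 31 of the 34 members, in 36 windows. The CLEAR core TCACGTG or its reverse CACGTGA stood in 10 of the 36 (27.8%), against 3.77% of 32851 windows of all genes and 5.37% of windows of genes listed in the deposited tables. The shorter palindrome CACGTG, which lies inside it, stood in the same share of member windows (27.8%), against 7.15% of all windows. Both were searched on both strands. A longer palindrome, the core with a G before it and a C after, contains both and stood in 1 member window (2.78%, against 0.326% of all windows), that of Cln3. The interferon-type pattern of GAAA, any 2 bases and GAAA, also on both strands, stood in 1 member window (2.78%, against 3.44%), that of Lamp1. The 250 bases before the RefSeq start are printed for 3 genes with the core that were called higher under the deposited scaling (Lamp1, Gla and Cln3), a gene with the core that was called lower (Sgsh), and Npc2 and Grn, the largest risers, whose windows lack it. Cln3 and Lgmn have 2 windows each, with the core in 1 of them: the Cln3 window printed is the downstream one, and the upstream one, chr7:126585768-126586067, lacks it. Capitals mark the core and, once in Cln3, the longer palindrome around it, and each sequence runs 5′ to 3′ on the gene's own strand.
Lamp1, chr8:13158911-13159160, plus strand: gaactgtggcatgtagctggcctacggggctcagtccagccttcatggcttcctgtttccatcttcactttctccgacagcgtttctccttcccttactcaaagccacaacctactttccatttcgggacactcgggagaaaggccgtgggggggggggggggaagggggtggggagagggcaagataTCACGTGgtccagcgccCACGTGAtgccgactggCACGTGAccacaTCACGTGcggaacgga
Gla, chrX:134601006-134601255, minus strand: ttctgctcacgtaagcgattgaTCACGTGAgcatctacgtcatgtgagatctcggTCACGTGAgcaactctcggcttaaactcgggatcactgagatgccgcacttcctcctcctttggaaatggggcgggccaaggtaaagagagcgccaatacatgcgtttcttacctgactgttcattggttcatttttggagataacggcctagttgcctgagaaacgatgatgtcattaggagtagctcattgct
Cln3, chr7:126583237-126583486, minus strand: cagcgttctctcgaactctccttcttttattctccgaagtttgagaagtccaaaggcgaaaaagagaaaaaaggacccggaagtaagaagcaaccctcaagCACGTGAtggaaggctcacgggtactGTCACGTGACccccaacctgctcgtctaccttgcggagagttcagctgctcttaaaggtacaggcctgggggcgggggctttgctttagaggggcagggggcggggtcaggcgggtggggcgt
Sgsh, chr11:119355511-119355760, minus strand: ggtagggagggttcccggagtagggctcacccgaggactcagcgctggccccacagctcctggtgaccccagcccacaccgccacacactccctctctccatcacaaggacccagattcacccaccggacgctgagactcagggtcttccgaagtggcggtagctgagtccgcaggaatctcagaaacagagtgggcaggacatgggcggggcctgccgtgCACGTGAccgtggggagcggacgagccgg
Npc2, chr12:84773113-84773362, minus strand: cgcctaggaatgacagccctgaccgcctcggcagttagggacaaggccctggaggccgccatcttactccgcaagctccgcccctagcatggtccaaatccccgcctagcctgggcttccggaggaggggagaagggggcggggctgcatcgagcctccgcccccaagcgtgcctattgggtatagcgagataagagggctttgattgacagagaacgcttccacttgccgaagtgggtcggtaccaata
Grn, chr11:102430257-102430506, plus strand: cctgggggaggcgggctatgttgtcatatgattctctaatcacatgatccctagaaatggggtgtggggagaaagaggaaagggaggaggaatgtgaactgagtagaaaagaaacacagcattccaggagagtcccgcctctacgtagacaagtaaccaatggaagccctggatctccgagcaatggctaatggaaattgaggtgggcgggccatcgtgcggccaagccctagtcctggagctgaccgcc

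Genes with the core were found among those called higher and among those called lower. The 10 genes with it were Arsa, Cln3, Gaa, Gla, Glb1, Lamp1, Lgmn, Mcoln1, Naglu and Sgsh, of which 5 were higher and 4 lower in WT (median log2 change 0.09, from -0.40 to 1.15) and 4 were higher and 4 lower in KO (median -0.01, from -0.88 to 1.16). Of the 21 matched genes without it, 8 were higher and 8 lower in WT (median 0.03) and 5 higher and 9 lower in KO (median -0.08). Over all genes 31.7% were higher and 31.1% lower in WT, and 33.7% and 32.9% in KO, so calls in both directions were common. Whether the core goes with a direction of response was not tested. A match is a run of letters, not a measured binding site.

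The third comparison set KO against WT with no agonist, to see how the set differed by genotype at rest; it shares libraries with the treatment comparisons. Few members passed: 2 were higher (5.88%, where 7.04% of 12814 genes were) and 2 lower (5.88%, where 9.58% of genes were), and all 4 differences were small. Lamp2 counts on this table's scale were 126084, 131274 and 131859 in WT and 146440, 151289 and 151463 in KO, a log2 difference of 0.21 (SE 0.044, adjusted p = 8.13e-03). Gusb was at 105198, 106530 and 109159 against 92527, 89700 and 94910, a difference of -0.21 (SE 0.045, adjusted p = 7.66e-03). Arsa was at 2250, 2064 and 2245 against 2603, 2525 and 2688 (0.25, adjusted p = 2.17e-02), and Gla at 9445, 8830 and 9144 against 7582, 7927 and 8302 (-0.20, adjusted p = 2.85e-02). In each of the 4 genes the KO and WT libraries did not overlap, which held for 11 of the 34 members in this comparison. The share over all genes was not counted. None of the 4 passed when limma was run without its intensity trend, where 6 members had an unadjusted p below 0.05, while edgeR with TMM called 4 members and DESeq2 6. Psap (-0.07), Grn (-0.14), Npc2 (0.00) and Tfeb (0.04) were not called.

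The fourth comparison set KO against WT under DMXAA. There were 6 members higher in KO (17.6%, where 10.7% of 12499 genes were) and 6 lower (17.6%, where 10.8% of genes were). Lamp2 had the smallest p of the members, with 186071, 193258 and 187387 in WT and 253719, 241547 and 252813 in KO, a log2 difference of 0.40 (SE 0.034, adjusted p = 2.28e-05). Sgsh was lowest in KO against WT, at 1883, 2039 and 1918 in WT and 1355, 1491 and 1397 in KO (-0.46, SE 0.062, adjusted p = 4.70e-04). Gusb was at 54317, 55376 and 55215 against 48247, 45686 and 46559 (-0.23, adjusted p = 8.28e-04), and Galns at 9056, 9395 and 9105 against 10606, 11498 and 11091 (0.27, adjusted p = 1.40e-03). These 4 genes showed no overlap between genotypes, which held for 18 of the 34 members here. The share over all genes was not counted.

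The remaining calls under DMXAA were Glb1 (0.31), Psap (0.22), Npc2 (0.15) and Lipa (0.12) on the higher side and Gaa (-0.32), Gla (-0.20), Naglu (-0.17) and Scarb2 (-0.14) on the lower side. For Psap the counts were 4718821, 4851347 and 4954562 in WT and 5631655, 5479256 and 5782886 in KO (adjusted p = 1.48e-03). Npc2 (adjusted p = 2.74e-02) and Lipa (adjusted p = 3.08e-02) were not called at the same total. Of the other strong risers of the response, Grn was at -0.02 and Lgmn at -0.01, neither called.

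**Figure D5:**
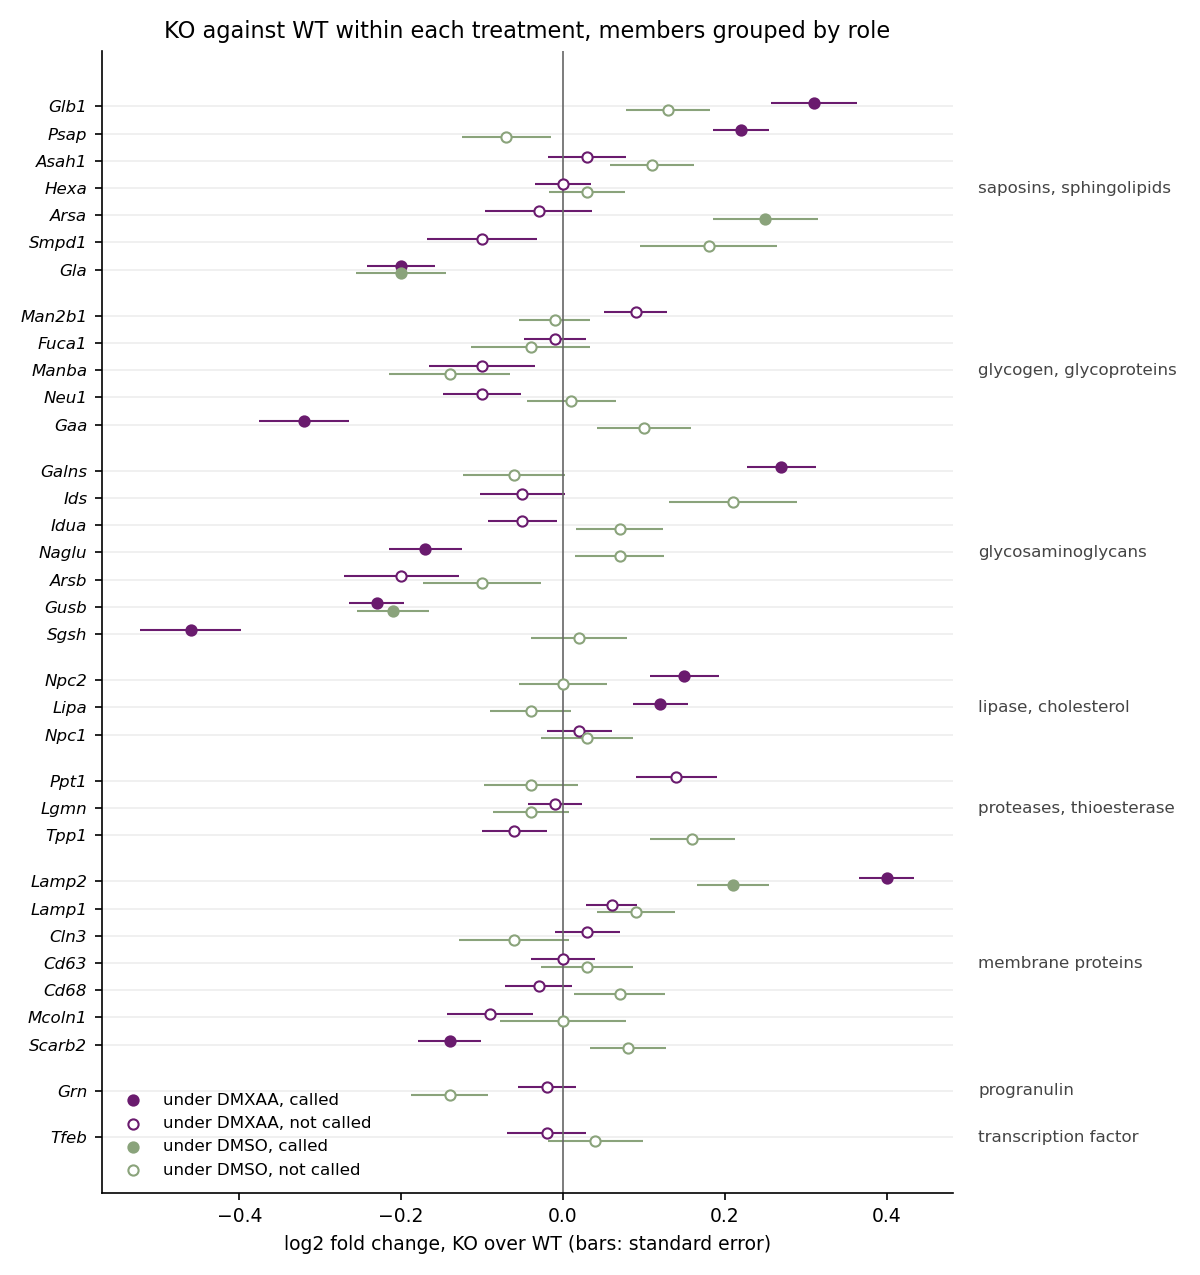
Log2 fold change of each member, KO over WT, under DMXAA (purple) and under DMSO (green), grouped by role, with bars for the standard error and filled points for an adjusted p below 0.05 by limma. Lamp2 (0.21 and 0.40) and Gusb (-0.21 and -0.23) lie on the same side under both treatments, while Sgsh and Gaa lie left of 0 under DMXAA and near it under DMSO.

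Whether the response itself differed by genotype was tested as the interaction over all 12 libraries, which takes the genotype difference (KO minus WT) of the DMXAA libraries and subtracts that of the DMSO libraries. The response of 3 members was higher in KO (8.82%, where 5.37% of 12729 genes were) and that of 5 was lower (14.7%, where 3.24% of genes were). Psap (0.29, SE 0.064, adjusted p = 1.09e-02), Galns (0.33, SE 0.075, adjusted p = 1.30e-02) and Lamp2 (0.19, SE 0.050, adjusted p = 2.70e-02), all higher after DMXAA in both genotypes under the deposited scaling, had the larger rise in KO. Sgsh (-0.48, SE 0.079, adjusted p = 1.55e-03) and Tpp1 (-0.23, SE 0.061, adjusted p = 3.17e-02), lower in both, had the larger fall in KO. Gaa (-0.42, SE 0.085, adjusted p = 6.60e-03) and Scarb2 (-0.23, SE 0.053, adjusted p = 1.68e-02) were called lower in KO and not called in WT, and Naglu (-0.24, SE 0.065, adjusted p = 3.15e-02) was called higher in WT and not called in KO, all by the deposited scaling. At the same total Gaa (-0.40) and Scarb2 (-0.29) were also called lower in WT, and Naglu was at -0.05 in WT (not called) and -0.36 in KO (lower). There the Lamp2 interaction was 0.12 and not called. For Gaa the counts on the genotype tables' own scales were 15082, 14003 and 14962 against 13062, 13821 and 14785 in WT, which overlap, and 17037, 15049 and 16622 against 11361, 12229 and 10882 in KO, which do not.

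The rest of the lysosomal machinery, on lists of genes that are not members, gives the setting. Their counts stand against 31.7% of all genes higher and 31.1% lower for DMXAA in WT, and 33.7% and 32.9% in KO. For DMXAA in WT, 13 of 24 tested other hydrolases and cofactors were higher and 5 lower (median 0.26), among them the nucleic acid exonuclease Pld4 (1.66), the acid phosphatase Acp2 (1.31) and the acylethanolamine hydrolase Naaa (1.46). Of 11 cathepsins, the main lysosomal proteases, 7 were higher and 2 lower (median 0.57), led by Ctsz (1.31), Ctsc (1.77) and Ctss (0.79). In KO the same lists gave 14 higher and 5 lower, and 8 higher and 1 lower. The hydrolase with the smallest p in KO was a lower one, Galc, at -1.34, and at -1.28 in WT. At the same total the hydrolases split 10 to 11 in WT and 7 to 12 in KO, and the cathepsins 6 to 4 and 6 to 3. The hydrolase medians there were -0.06 and -0.15 and the cathepsin medians 0.25 and 0.10, against -0.32 and -0.39 over all genes. The share of all genes called at that scaling is not given here, so only the medians can be set against all genes.

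The genes of the proton pump that acidifies the lysosome were called in both directions. Of its 17 genes 5 were higher and 3 lower in WT and 6 and 5 in KO, with Atp6v0d2, a subunit known from osteoclasts and some macrophages, at -1.97 in WT and -1.34 in KO, and Tcirg1 at 0.98 and 1.08. Among 22 other membrane proteins 10 were higher and 6 lower in WT and 10 and 9 in KO, from Slc29a3 (1.68) and the chloride exchanger Clcn7 (1.42) to Abca2 (-1.64). In the list of 18 mannose-6-phosphate and sorting genes 6 were higher and 4 lower in WT and 7 and 7 in KO, and the sorting receptor Sort1, which also carries prosaposin and progranulin, was at -4.34 in WT and -3.87 in KO. In the list of 18 regulators of TFEB and mTORC1, 7 were higher and 4 lower in WT and 8 and 4 in KO, including in WT Lamtor5 (0.69), Lamtor1 (0.48) and Rragd (-0.87). Of 16 autophagy genes 7 were higher and 7 lower in WT and 7 and 8 in KO. At the same total the median of all genes was -0.32 in WT and -0.39 in KO, and these lists had more lower than higher genes. The pump had 2 higher and 14 lower in WT and 2 and 13 in KO (medians -0.26 and -0.35). The other membrane proteins had 8 and 11 and 7 and 12 (-0.16 and -0.38), and the regulators 2 and 10 and 2 and 11 (-0.19 and -0.24). Autophagy had 3 and 11 and 4 and 12 (-0.37 and -0.46), and 14 sorting genes were lower in WT and 17 in KO (-0.28 and -0.47). The share of all genes called at that scaling is not given here, so these counts cannot be set apart from the shift of all genes.

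By genotype under DMSO, where 7.04% of all genes were higher in KO and 9.58% lower, 6 of the 24 other hydrolases were higher and 2 lower, with Hgsnat, the enzyme that acetylates heparan sulfate for Naglu to cut, at 0.89, Naaa at 0.80 and the tartrate-resistant phosphatase Acp5 at -0.80. Of the 22 other membrane proteins 3 were higher and 2 lower. Under DMXAA, where 10.7% of all genes were higher and 10.8% lower, all 11 cathepsins were called, 6 higher in KO and 5 lower, with Ctsd at 0.32 and Ctsz at -0.22. In the interaction, where 5.37% of all genes were higher and 3.24% lower, 5 cathepsins were higher and 2 lower, with Ctsd at 0.45 (adjusted p = 2.82e-04), and 3 pump genes were higher, with Atp6v0d2 at 0.62 (adjusted p = 8.01e-04). At the same total the interaction gave 2 cathepsins higher and 3 lower, and 1 pump gene on each side, so the balance of both lists depends on the scaling. The median of all genes was -0.07 there, and the share of all genes called at that scaling is not given here.

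The authors' deposited tables of fold changes, which are not independent of the counts used here, call 28 members for DMXAA in WT, 25 in KO, 6 for genotype under DMSO and 13 under DMXAA. Of these, 27, 25, 4 and 12 were also called here in the same direction.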

How the data were processed

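Strand-specific mRNA libraries were sequenced, per the labels' protocols, and the submitters' processing notes name HISAT2, featureCounts and the genome build mm10. The deposited values are normalized counts, a signal scaled by the authors within each of 4 tables of 6 libraries (WT, KO, DMSO, DMXAA). Deposited log2 fold changes and adjusted p-values of the authors' own comparisons were used only where named. Each column has a fixed step, and in units of it 100% of values were whole numbers of reads (tolerance 0.01), identical in both tables that hold a library. The standard error and test statistic per gene in the authors' tables, score columns per the file headers, were not used.

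Comparisons were made within a table with limma 3.58.1 (R 4.3.3; empirical Bayes with an intensity trend) on log2(normalized count + 1), for genes with a mean of at least 10, two-sided, with Benjamini-Hochberg adjustment over all genes tested and a threshold of 0.05; the interaction used the DMSO and DMXAA tables together. A fold change is on the log2(value + 1) scale. As alternatives, edgeR 4.0.16 and DESeq2 1.42.0 were run on the recovered reads. For DMXAA in WT, limma called 8007 genes, edgeR with TMM 8049 and DESeq2 7908; for genotype under DMSO 2129, 2130 and 2419. Other scalings, pseudocounts (0.5, 10), filters (none, 100), a block on the replicate number and leaving out each library were also tried.

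Members, roles and lists were chosen with earlier results of these data known, so no p is given for a list. All members may be named. Values in every library are given for the 4 members with the smallest p in each comparison and for Psap and Tfeb, and from each other list up to 3 genes with the smallest p in a comparison. Exon lengths and overlaps are from GENCODE vM21 (mm10), where 97.3% of symbols had 1 position; promoter sequences are from RefSeq (GRCm38.p6).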

Additional observations from a re-analysis of the deposited data

Results flagged for a closer look

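The DMXAA response of 8 members differed between KO and WT by the interaction term of limma over 12 libraries, each with an adjusted p below 0.05 over all genes. As KO minus WT on the log2 scale the differences were -0.48 for Sgsh, -0.42 for Gaa, 0.33 for Galns, 0.29 for Psap, -0.24 for Naglu, -0.23 for Scarb2, -0.23 for Tpp1 and 0.19 for Lamp2. Sgsh, Gaa, Galns and Scarb2 kept their direction and their call under all 25 alternatives run, with ranges of -0.55 to -0.45, -0.49 to -0.37, 0.26 to 0.37 and -0.30 to -0.21. Psap kept both under 24 of 25, from 0.22 to 0.33, and its call was lost without a filter on low values (adjusted p = 8.16e-02, with adjusted p from 2.4e-04 to 8.16e-02 over the alternatives). Naglu kept its call under 17, and Tpp1 and Lamp2 under 15 each. For Naglu the responses were 0.27 in WT and 0.03 in KO. For Tpp1 they were -0.25 and -0.47, and for Scarb2 0.03 and -0.20. Opposite-strand exon overlap with Card14 covers 21.6% of Sgsh exon bases, and its part in the Sgsh values was not tested.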

How the results depend on the processing

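Over 170 pairs of member and comparison, 3298 values were recomputed. Of these, 3152 kept their side of the threshold (76 of them changed sign without a call under either setting). Without a change of sign, 95 lost a call and 39 gained one. The other 12 reversed, which here means a change of sign with a call under at least 1 of the 2 settings. The 12 reversals all came with libraries at the same total, which moves the median of all genes by -0.32 in WT and -0.39 in KO: in WT Smpd1 -0.04, Neu1 -0.18, Idua -0.13, Naglu -0.05, Scarb2 -0.29 and Tfeb -0.20, and in KO Neu1 -0.36, Idua -0.32, Naglu -0.36, Lamp1 -0.03, Cd68 -0.13 and Tfeb -0.32. In WT only Neu1 and Idua were called under both scalings, higher by the deposited one and lower at the same total. Smpd1 and Naglu lost their call in WT, and Scarb2 and Tfeb gained one there. Libraries at the same total gave 7 higher and 21 lower members for DMXAA in WT, 25 lower in KO, and 4 higher in KO than WT under DMSO. The median response over the members was then -0.33 in WT and -0.46 in KO. The share of all genes called at that scaling is not given here. Without the intensity trend no member was called for genotype under DMSO (0 higher and 0 lower by limma, with 6 at an unadjusted p below 0.05, where edgeR called 4 and DESeq2 6), 7 under DMXAA (3 lower) and 5 in the interaction (3 lower); the cause was not tested. Without a filter on low values 1 member was higher in the interaction. More genes entered that fit, and the cause of the lower count was not tested. Without Psap the set held 2.01%, 2.09%, 2.07% and 2.13% of reads in WT under DMSO, WT under DMXAA, KO under DMSO and KO under DMXAA.

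Leaving out 1 library at a time gave 24 to 27 called members for DMXAA in WT (12 to 14 higher, 12 to 13 lower), 24 to 26 in KO (10 higher, 14 to 16 lower), 2 to 4 for genotype under DMSO (1 to 3 higher, 1 to 3 lower), 8 to 10 under DMXAA (4 to 5 on each side) and 5 to 8 in the interaction (2 to 3 higher, 3 to 5 lower), and shares of 6.96% to 7.22%, 7.39% to 7.52%, 6.87% to 7.04% and 8.11% to 8.27% in the groups as above. Under DMSO the total was 2 without KO replicate 1. In the interaction it was 5 without WT under DMSO replicate 2, KO under DMSO replicate 1, WT under DMXAA replicate 3, KO under DMXAA replicate 1 or KO under DMXAA replicate 3.

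Deviations of same-numbered libraries had correlations from -0.0358 to 0.0656. By title number, KO libraries 1, 2 and 3 under DMSO each correlated most with their namesake under DMXAA (0.0434, 0.0316 and 0.0641). By the numeral in the library name the KO libraries did not, and in the other comparisons some did and some did not. Correlations this small, with 3 libraries a group, cannot decide whether libraries were paired. A replicate block on the title number or on the numeral in the library name left 1 member lower for genotype under DMSO in each case and moved no other count of called members by more than 1.5 times. Each member had 1058 reads or more in every library, and precision is limited by the 3 libraries a group.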
